A study of Mus musculus with 82 samples.

Results

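The genes that encode the proteasome were followed across hematopoietic stem cells (HSCs) of 2 ages, old HSCs carrying shRNAs, and myeloid progenitors. Members were all rows of the raw gene count files whose symbol begins with Psm, goes on with a single letter from a to g and ends in a number, which gave 48 of 55376 genes. The 3 immunoproteasome genes Psmb8, Psmb9 and Psmb10 were kept apart, so that counts of members below refer to the other 45 genes, of which 44 passed the filter on low counts in every comparison. The gene that did not pass was Psmb11, a catalytic subunit made in the thymus, with 13 reads in all over the 4 young HSC libraries.

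The proteasome is the protease that degrades proteins tagged with ubiquitin. Its core particle is built from stacked rings of alpha subunits (Psma) and beta subunits (Psmb), of which Psmb5, Psmb6 and Psmb7 carry the active sites, and its regulatory particle consists of a base with ATPases (Psmc) that unfold substrates and a lid (Psmd) that removes ubiquitin. In cells exposed to interferon Psmb8 takes the place of Psmb5, Psmb9 that of Psmb6 and Psmb10 that of Psmb7, which changes the peptides made for display on MHC class I, and HSCs are known to keep protein synthesis low compared with their progeny.

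The study asked how chromatin and transcription of HSCs change with age and what knockdown of a shorter variant of Btaf1, a factor that moves the TATA-binding protein, does to old HSCs. Young HSCs came from male C57BL/6J mice of 3 to 4 months and old HSCs from male mice of 24 to 26 months, sorted as LSK CD34- Flk2- CD150+ cells without genetic change, with 4 young libraries from pooled mice and 8 old libraries from individual mice for RNA-seq. Common myeloid (CMP), granulocyte-macrophage (GMP) and megakaryocyte-erythroid (MEP) progenitors of young mice gave 2 RNA-seq libraries each. Old HSCs infected with a lentivirus that carried a control scramble shRNA, shRNA1 or shRNA2, both shRNAs directed at the unique 3′ part of the shorter Btaf1 variant, gave 2 RNA-seq libraries per virus after 3.5 days of culture and another 2 per virus more than 4 months after transplantation. The hosts were lethally irradiated young female CD45.1 mice, the GFP+ donor HSCs sorted from them as LSK CD48- CD150+ CD45.2+ were pooled from 2 to 4 recipients per library, and every shRNA library, the control included, was thus an infected old HSC. Accessibility (ATAC-seq, 4 young and 4 old libraries) and the promoter mark H3K27ac (ChIP-seq, 2 libraries per age) were used as further readouts of HSCs.

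Each of the 30 RNA-seq libraries held between 20475764 and 42737054 reads assigned to genes, and no pair of libraries of 1 group agreed within sampling noise. In CPM, the reads of a gene per 1000000 reads counted in its library, the 48 genes together held a median of 6183 in young HSCs, 6110 in old HSCs, 8352 in cultured and 7849 in transplanted control HSCs, 9526 in CMP, 9743 in GMP and 12654 in MEP. Values below are CPM after scaling by edgeR's TMM factors within a comparison. A list of 8 HSC markers summed to 1693 to 1970 CPM in young and old HSCs, 711.9 to 715.0 in cultured controls, 1216 to 1440 in transplanted controls and 23.3 to 103.9 in progenitors. The HSC libraries detected 32867 to 42539 genes against 21375 to 25332 in the progenitor and shRNA libraries, and only the HSC libraries held spike-in rows, so that cell type and library batch cannot be told apart between HSCs and progenitors. In bulk samples fewer cells of a type and less RNA per cell cannot be told apart.

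**Figure D1:**
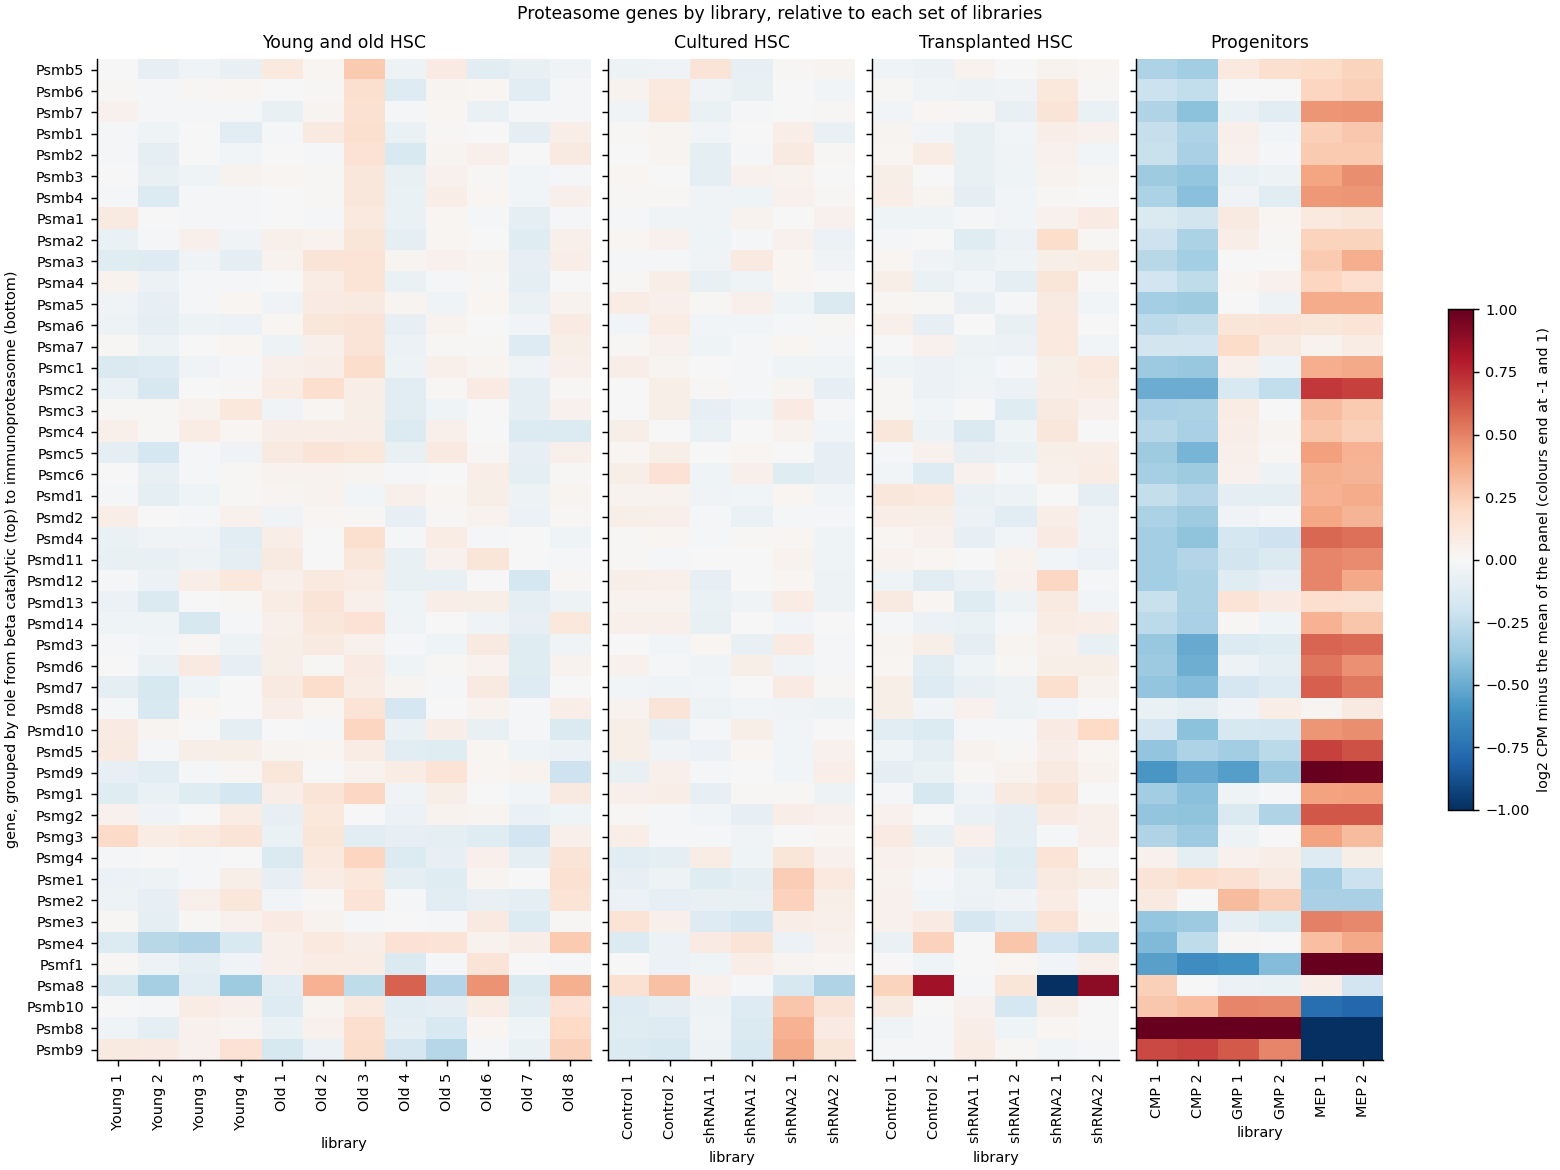
Each row is 1 of the 47 proteasome genes that passed the filter, grouped by role from the catalytic beta subunits to the immunoproteasome, and each column is 1 library. Colour gives the log2 CPM minus the mean of that gene over the libraries of the panel, with colours ending at -1 and 1. The young and old HSC panel is pale except Psma8 and Psme4, and the progenitor panel darkens from blue in CMP to red in MEP, with the reverse for Psmb8 and Psmb9.

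RefSeq (GRCm38.p6) holds the bases from 250 before to 50 after the transcript start for 40 of the 48 genes, not for Psma8, Psmb1, Psmb2, Psmb7, Psmd3, Psmd7 and Psmg2 nor for Psmc3. The sequences shown here are from catalytic subunit, activator and chaperone genes described further on, and hold motifs of factors known to control proteasome genes. The core of the antioxidant response element, the motif of the Nfe2l1 and Nfe2l2 factors, was searched on both strands as TGACNNNGC and is in capitals.
Psmb5: gtgaagttgTGACGTCGCggcgttgcc
Psmb6: taaagagagTGACGGAGCgctttacga
Psme4: ctcttctggTGACGCTGCagccgcagc
Psmd9: tctagccggTGACCCCGCccacttcca
In mm10 (GRCm38) these lie at chr14:54618025-54618051 on the minus strand, chr11:70525339-70525365 on the plus strand, chr11:30771759-30771785 on the minus strand and chr5:123228150-123228176 on the plus strand, at offsets of -47, -9, -7 and -31 bases from the transcript start. The core was found in 6 of 37 members (16.2%, Psmc6 and Psmd12 being the others) and in 14.0% of 27025 genes. The second set is from 2 genes known to be induced by interferon, with the gamma-activated site TTCNNNGAA in capitals for Psmb8 and the interferon response element, searched as GAAA, any 2 bases and GAAA, in capitals for Psme1.
Psmb8: cctccgctgTTCCCAGAAgatgccccc
Psme1: gcgggaaggGAAAGCGAAAgcacagctc
They lie at chr17:34198089-34198115 on the plus strand, before the RefSeq start of Psmb8, and at chr14:55578494-55578521 on the minus strand, just after the start of Psme1. The gamma-activated site was in 2 of 37 members (5.41%, Psmd2 and Psmg1), of the immunoproteasome genes in Psmb8 alone, and in 9.55% of all genes. The interferon response element was in 5 of 37 members (13.5%, Psmd4, Psmd9, Psmb3, Psmg4 and Psme1), in 0 of the 3 immunoproteasome promoters and in 3.99% of all genes. The CCAAT box, searched as CCAAT, was in 13 of 37 members (35.1%) and 41.1% of all genes, and in Psmb9 it lay at chr17:34187325-34187347 on the plus strand, opposite to the gene.
Psmb9: ctcggctttCCAATcagcggctg
A match is a run of letters and no measure of binding.

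Psmb8 (chr17:34197721-34201454, plus strand) and Psmb9 (chr17:34181987-34187764, minus strand) are neighbours in the MHC region with 9956 bases between them, and Psme1 and Psme2 are neighbours on chromosome 14 with 5911 bases between them. Psmb10 lies alone at chr8:105935735-105938444 on the minus strand. Exons of 13 of the 48 genes overlap another gene, Psmb9 that of Tap1, the peptide transporter, on the opposite strand, Psmb7 that of Nek6, and Psmb8 that of Gm20496. The sources used here do not say whether reads were counted by strand, so reads from Psmb9 and Tap1 could not be separated.

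Levels within a library were compared as CPM per kilobase of exon (library totals), with the union of all annotated exons of a gene as its length. This length can exceed that of the transcript present, so an order between genes also reflects the annotation. In young HSCs the highest levels were those of Psmb2, a structural beta subunit, at 159 ± 2.56 CPM per kb (SD, n = 4), of Psma6, an alpha subunit, at 141 ± 1.43, and of Psme1, a subunit of the interferon-inducible activator, at 130 ± 4.59. The lowest of the genes that passed the filter were Psmd9 at 5.40 ± 0.172 and Psmg3 at 7.56 ± 0.174, both assembly chaperones, and Psme4, a nuclear activator of the core, at 8.89 ± 0.395. The catalytic subunits were unequal per kilobase, with Psmb6 at 90.1 ± 1.15, Psmb5 at 73.1 ± 1.49 and Psmb7 at 18.6 ± 0.358, although the assembled particle holds the same number of each. Psmb5 and Psmb7 had similar CPM before division by length, and their gap lay in the exon lengths of 899 and 3421 bases. In this order of levels 26 of 44 neighbouring pairs overlapped between the young libraries, and 39 of 44 between the old ones. Within the 6 base ATPases levels ran from 20.8 (Psmc2) to 74.8 (Psmc1), and within the 8 lid subunits from 21.5 (Psmd11) to 70.2 (Psmd7).

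Immunoproteasome mRNA was not rare in young HSCs. Psmb8, which replaces Psmb5, stood at 86.4 ± 3.14 CPM per kb, Psmb10 at 73.5 ± 2.00 and Psmb9 at 48.7 ± 1.37. As a ratio per kilobase, Psmb8 was at 1.18 ± 0.058 of Psmb5, Psmb10 at 3.96 ± 0.163 of Psmb7 and Psmb9 at 0.540 ± 0.0139 of Psmb6 (SD, n = 4). The size of these ratios also depends on the exon lengths used, such as 1705 bases for Psmb10 and 3421 for Psmb7.

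Old HSCs were compared with young HSCs to learn whether proteasome mRNA changes with age. The genes hardly moved: the median log2 fold change of the 44 members was 0.04, against -0.01 over all 21522 genes tested, and 42 of 44 stayed within 1.2-fold, beside 66.4% of all genes. With edgeR's quasi-likelihood test at an adjusted p below 0.05, 4 of 44 members were higher in old HSCs, while 11.9% of all genes were, and 0 were lower, while 8.67% of all genes were. At an unadjusted p below 0.05 the counts were 9 higher and 1 lower, beside 16.7% and 13.3% of genes, and DESeq2 called 3 higher and 0 lower, beside 12.1% and 8.91% of genes. No member passed the study's fold limit of 1.5 in either direction, which 4.69% of genes passed upward and 2.83% downward.

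The 4 called genes belonged to different parts of the particle. Psme4, the nuclear activator that opens the core without ATP, stood at 77.5, 70.3, 69.2 and 76.5 CPM in young libraries and from 87.4 to 102.0 (median 90.2) in the 8 old ones. All old libraries lay above all young ones, and the log2 fold change was 0.32 ± 0.049 (SE, adjusted p = 2.26e-05). Psmg1, a chaperone that helps to close the alpha ring, stood at 47.6, 49.5, 47.5 and 45.7 CPM in young and from 50.5 to 59.7 (median 54.0) in old libraries. Here too the groups did not overlap, at a log2 fold change of 0.18 ± 0.052 (adjusted p = 0.0123), and these were the 2 of 44 members whose old libraries all exceeded the young ones, as 8.32% of all genes did. None had all old libraries below the young ones, as 5.54% of genes did. Without young library 4 the adjusted p of Psmg1 was 0.0606.

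Psma3, an alpha subunit, stood at 194.1, 192.8, 206.0 and 197.8 CPM in young and from 199.1 to 231.9 (median 216.4) in old libraries. The groups overlapped at the lowest old library, and the log2 fold change was 0.14 ± 0.040 (adjusted p = 0.0136), with an adjusted p of 0.0583 without young library 1 and 0.0571 without young library 2. Psmc1, a base ATPase, stood at 136.5, 137.4, 147.1 and 148.4 CPM in young and from 145.2 to 169.7 (median 155.8) in old libraries, at a log2 fold change of 0.12 ± 0.043 (adjusted p = 0.0459). The groups overlapped, and the call was lost when any of young libraries 1 to 3 or old libraries 1, 2, 3 or 5 was left out (adjusted p from 0.0661 to 0.181). The number of members called higher ran from 2 without young library 1 or 2 (2249 of 22338 and 2141 of 22009 genes) to 7 without old library 4 (2817 of 21083 genes). With library totals in place of TMM it was 2 higher (Psme4 and Psmg1) and 3 lower (Psmd5, Psmc3 and Psmg3), beside 10.1% and 12.6% of genes.

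None of the constitutive catalytic subunits passed the test, and Psmb7 and Psmb6 were among the 3 least changed members. Psmb7 stood at 64.7, 61.8, 62.0 and 61.8 CPM in young and from 59.5 to 69.8 (median 62.3) in old libraries, with a log2 fold change of 0.01 (95% interval -0.09 to 0.11). Psmb6 stood at 166.3, 163.9, 166.6 and 167.5 CPM in young and from 151.4 to 184.8 (median 166.0) in old libraries, with a log2 fold change of -0.01 (-0.10 to 0.08). Psmb5 stood at 66.9, 63.2, 65.1 and 63.5 CPM in young and from 62.2 to 80.2 (median 66.5) in old libraries, with a log2 fold change of 0.08 (-0.04 to 0.20). In each the young range lay inside that of the old libraries. Psmd10, an assembly chaperone, was as little changed, at -0.01 (-0.13 to 0.12).

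None of the 3 immunoproteasome genes passed the test between ages. Psmb8 stood at 282.7, 271.9, 299.5 and 296.3 CPM in young and from 261.0 to 332.8 (median 288.4) in old libraries, at a log2 fold change of 0.03 (95% interval -0.09 to 0.15). Psmb9 stood at 175.4, 174.2, 170.2 and 182.1 CPM in young and from 135.3 to 193.2 (median 157.6) in old libraries, at -0.13 (-0.29 to 0.04), and Psmb10 at 121.2, 119.9, 127.3 and 125.0 in young and from 110.3 to 133.4 (median 117.9) in old libraries, at -0.04 (-0.15 to 0.07). In all 3 the old range enclosed the young one, and the highest old library was replicate 8, which also had the highest summed level of a list of 10 interferon response genes (1040 CPM, against 623.4 to 872.5 in the other old libraries and 806.3 to 989.8 in young ones). The part of that response in these values was not tested.

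The ratio of an immunoproteasome gene to its constitutive counterpart within a library does not depend on scaling. The mean log2 ratio of Psmb8 to Psmb5 counts was 2.15 ± 0.071 in young and 2.10 ± 0.153 in old HSCs (SD, n = 4 and 8), a difference of -0.05 (exact two-sided permutation p = 0.558 over 495 splits, adjusted 0.558). For Psmb9 to Psmb6 it was 0.08 ± 0.037 and -0.05 ± 0.159, a difference of -0.12 (exact permutation p = 0.166, adjusted 0.497), and for Psmb10 to Psmb7 0.98 ± 0.060 and 0.93 ± 0.106, a difference of -0.05 (exact permutation p = 0.384, adjusted 0.558). Without old library 8 the difference for Psmb9 to Psmb6 was -0.17 with an adjusted exact permutation p of 0.0455.

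Genes that work with the proteasome but do not carry a Psm symbol were taken as 39 companions. With age 9 of 39 were higher and 1 lower, beside 11.9% and 8.67% of all genes. Zfand5, which binds the particle and stimulates it, rose by 0.62 on the log2 scale (adjusted p = 5.3e-12), Nfe2l2, a transcription factor of the antioxidant response, by 0.22 (adjusted p = 0.0025), and Uchl5, a deubiquitinase of the base, by 0.22 (adjusted p = 0.0019). Of 10 genes of MHC class I processing 4 were higher, among them Calr at 0.19 and Pdia3 at 0.15.

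Promoter accessibility moved downward. Of the 44 members with a promoter region, 23 were less accessible in old HSCs (52.3%) and 1, Psma8, was more accessible, with edgeR's test at an adjusted p below 0.05, while 39.7% of 15926 promoter regions were lower and 4.89% higher. Over all 89245 regions 15.3% were lower and 18.4% higher. The members' median log2 fold change was -0.17, beside -0.14 over all promoters and -0.01 over all regions, and with the study's limits (fold above 1.5 and adjusted p below 0.01) 0 members were lower, as 1.88% of promoter regions were, and 1 (Psma8) was higher, as 1.67% were. With library totals 21 members were lower, beside 34.7% of promoters.

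The region at Psmb6 showed the largest decrease of the members, with 12.4, 11.2, 11.9 and 12.6 CPM in young and 9.53, 7.33, 7.71 and 9.37 in old libraries. The groups did not overlap, and the log2 fold change was -0.51 ± 0.108 (adjusted p = 0.000145), beside an mRNA change of -0.01. At Psmd13, a lid subunit, the values were 17.6, 20.1, 19.0 and 19.9 in young and 16.2, 15.7, 11.99 and 12.8 in old libraries, again without overlap, at -0.44 ± 0.090 (adjusted p = 9.37e-05). Psmg3, a chaperone of the alpha ring, had 4.35, 4.34, 5.21 and 5.68 in young and 3.05, 5.18, 3.19 and 2.38 in old libraries and an equal change with overlap (-0.51 ± 0.176, adjusted p = 0.0207). The lid subunit Psmd11 (-0.39, adjusted p = 5.77e-05) and Psme3, a nuclear activator subunit (-0.37, adjusted p = 0.00518), came next. At Psme4, whose mRNA rose, the promoter held 70.7, 72.0, 69.4 and 72.3 CPM in young and 62.4, 59.2, 59.2 and 65.6 in old libraries, and thus fell by 0.21 on the log2 scale (SE 0.046, adjusted p = 0.000354). Psma3, whose mRNA also rose, fell by 0.23 in accessibility (adjusted p = 0.000969), while Psmg1 (-0.20, adjusted p = 0.0878) and Psmc1 (-0.16, adjusted p = 0.12) did not pass the test.

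Psma8, an alpha subunit known from testis, was the exception, at 3.28, 5.99, 4.26 and 3.75 CPM in young and 7.04, 8.28, 4.72 and 7.67 in old libraries. The groups overlapped at 1 old library, and the log2 fold change was 0.72 ± 0.163 (adjusted p = 0.000497), beside an mRNA change of 0.39 that did not pass the test. Its young promoter was also low in H3K4me3, at percentile 6.66 of 15564 promoters with a peak, where Psmb9 stood at percentile 99.5, Psmb10 at 94.7 and Psmb8 at 82.5. Of the 3 immunoproteasome promoters, Psmb9 fell by 0.28 (34.7, 29.2, 34.4 and 33.1 CPM in young and 28.9, 25.7, 25.96 and 28.3 in old libraries, adjusted p = 0.000457) and Psmb8 by 0.23 (adjusted p = 0.0139), while Psmb10 had 23.8, 24.8, 26.6 and 26.1 in young and 29.4, 24.9, 27.6 and 25.8 in old libraries (0.08, adjusted p = 0.362). The young and old ranges did not overlap at Psmb9.

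H3K27ac, a mark of active promoters, was found at 41 members, with Psma5, Psmc5, Psmd13 and Psmb11 without a peak at their start. With limma on log2(signal + 0.1), 0 members differed between ages in either direction, where 0.825% of 13581 promoter peaks were higher and 0.412% lower, and 2 were higher and 0 lower at an unadjusted p below 0.05, beside 4.51% and 5.62% of promoter peaks. These were Psmd9, with a signal of 2.72 and 2.41 in young and 3.84 and 3.45 in old libraries (log2 difference 0.49, adjusted p = 0.16), and Psmd2, with 3.62 and 4.30 in young and 5.07 and 5.37 in old libraries (0.39, adjusted p = 0.196). Both old libraries exceeded both young ones at each, without passing the test. The median over members was -0.01, beside -0.03 over all promoter peaks. In simulated data 2.99% of peaks changed 1.2-fold were called and 55.2% of those changed 1.5-fold, so small changes could be missed.

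**Figure D2:**
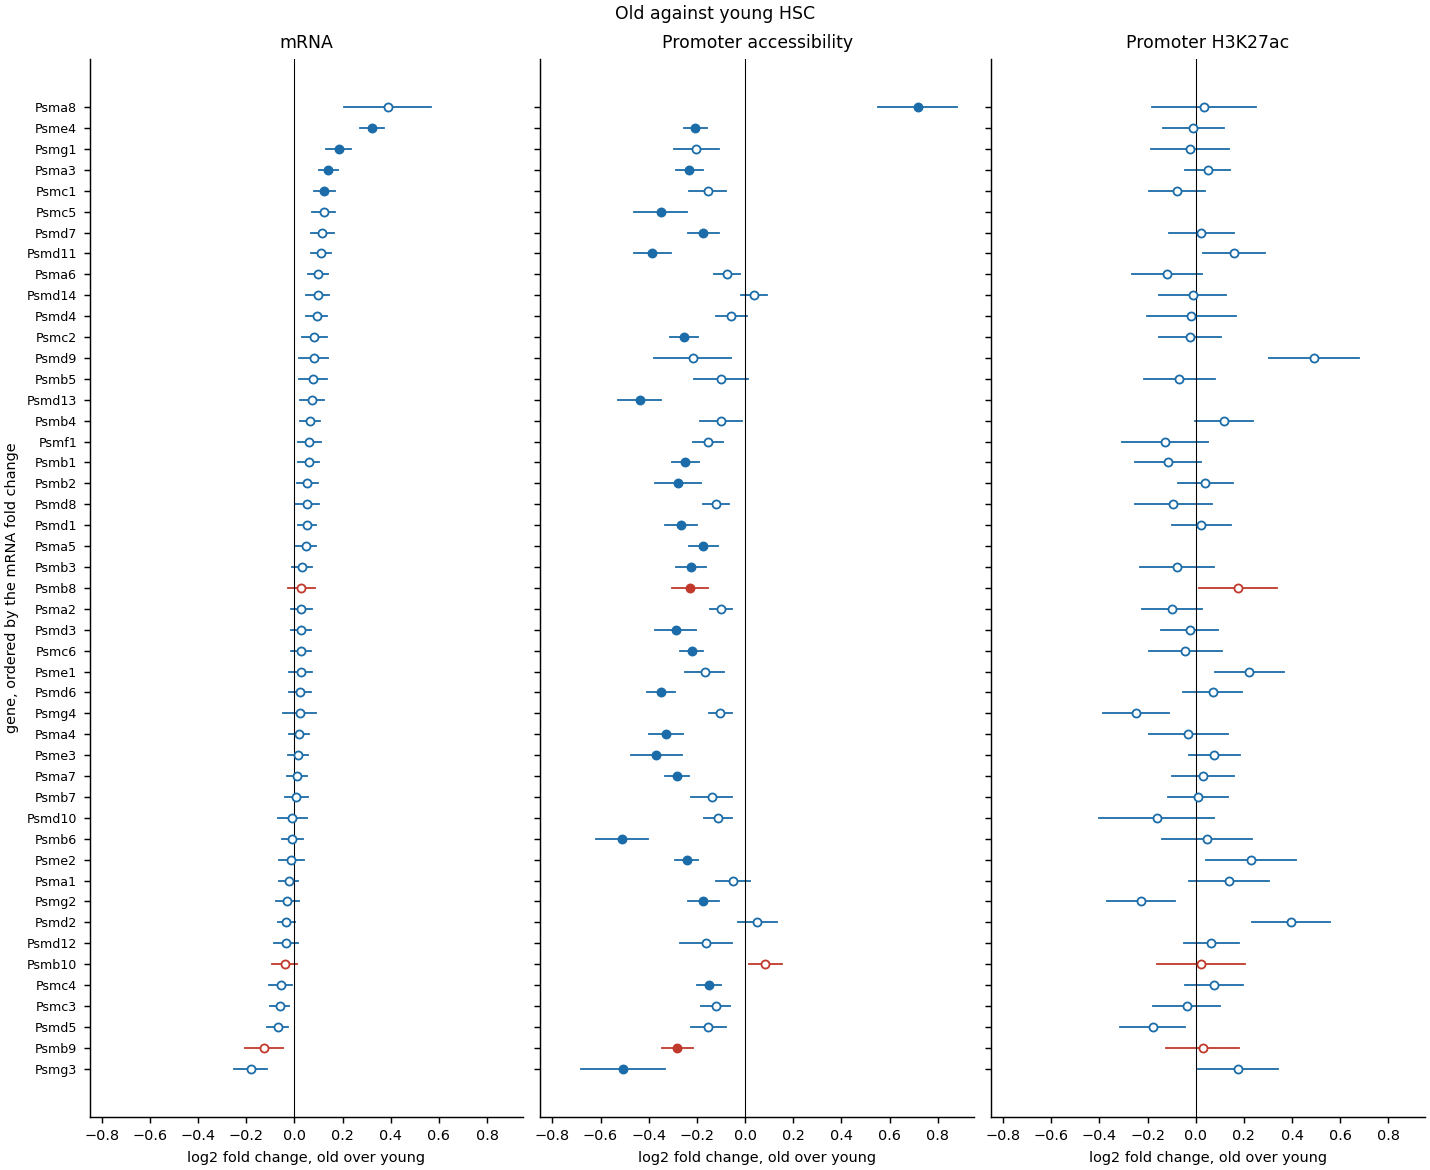
Log2 fold changes of old over young HSCs (horizontal axis) with bars of 1 SE for mRNA, promoter accessibility and promoter H3K27ac, 1 gene per row in the order of the mRNA change. Filled points have an adjusted p below 0.05 and red points are the immunoproteasome genes. mRNA points lie near 0 except Psma8 and Psme4, accessibility points lie mostly to the left of 0 with Psma8 far to the right, and no H3K27ac point is filled.

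Knockdown of the shorter Btaf1 variant was examined next, in both experiments. The targeted gene, counted as a whole, stood at 138.3 and 142.3 CPM with control, 108.8 and 117.7 with shRNA1 and 112.4 and 113.3 with shRNA2 in culture (log2 fold change -0.31, adjusted p = 0.00151). After transplantation it stood at 160.9 and 166.4 with control, 130.5 and 138.9 with shRNA1 and 119.6 and 117.7 with shRNA2 (-0.37, adjusted p = 0.791). Every shRNA library lay below both controls in both experiments, and these gene counts cannot separate the variant from the full transcript. The paper quantified both transcripts and reported the variant reduced and the canonical one unchanged in each experiment.

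In cultured cells the 44 members had a median log2 fold change of -0.04 with all 4 shRNA libraries against the 2 controls, beside 0.00 over all genes. By edgeR's test 0 members were higher and 0 lower, while 1.7% and 1.66% of genes were. In simulated data this test called 16.4% of genes changed 1.2-fold and 85.1% of those changed 1.5-fold. At an unadjusted p below 0.05, the study's limit without its fold, 1 member was higher (Psme4) and 5 lower (Psmd8, Psmb6, Psmc6, Psmd2 and Psma8), beside 7.72% and 7.55% of genes, and DESeq2 called 0 higher and 1 lower, beside 3.16% and 3.42%. No member passed a fold of 1.5 with an unadjusted p below 0.05, as 2.45% of genes did upward and 0.972% downward. All shRNA libraries lay above both controls in 2 members, beside 12.6% of genes, and below both in 12 members, beside 13.2% of genes. Psmb6 was the catalytic subunit among the 5, at 239.7 and 250.2 CPM with control, 229.2 and 223.1 with shRNA1 and 235.2 and 229.9 with shRNA2. All shRNA libraries were below both controls, at a log2 fold change of -0.09 (adjusted p = 0.26). After transplantation edgeR again called 0 members higher and 0 lower, and 0% of all genes, with 0 higher and 1 lower (Psmd1) at an unadjusted p below 0.05 where 3.27% and 2.32% of genes were. In simulated data 2.99% of genes changed 1.2-fold were called here and 52.2% of those changed 1.5-fold, so small changes could be missed. Psmd1, a scaffold of the base, stood at 240.3 and 238.3 CPM with control, 212.3 and 215.3 with shRNA1 and 222.5 and 209.1 with shRNA2, all shRNA libraries below both controls (-0.16, adjusted p = 0.852). No member passed a fold of 1.5 with an unadjusted p below 0.05, as 1.43% of genes did upward and 0.811% downward, and all shRNA libraries lay above the controls in 7 members and below in 2, beside 7.77% and 6.92% of genes. DESeq2 called 28 genes higher and 19 lower there, and 0 of the members. The knockdown effect in culture minus that after transplantation was called higher for 0.107% and lower for 0.103% of 21443 genes and for 0 members. At an unadjusted p below 0.05 it was higher for 0 members and lower for 4, beside 4.15% and 4.6% of genes.

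The 2 shRNAs differed in culture. With each shRNA compared separately with the control, shRNA1 gave 1 member higher (Psme4) and 1 lower (Psme3), beside 3.78% and 5.27% of genes, and shRNA2 gave 2 higher (Psme1 and Psme2) and 4 lower (Psma5, Psmd8, Psmc6 and Psma8), beside 3.92% and 4.76% of genes, with Psmb9 and Psmb10 higher as well. The direct comparison of shRNA2 with shRNA1 called 3 members higher (Psme1, Psme2 and Psme3), Psmb9 and Psmb10, beside 3.25% of genes, and 0 members lower, beside 2.33% of genes. The test of the difference was added after the values were seen.

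Psmb9 stood at 129.1 and 127.5 CPM with control, 136.6 and 127.4 with shRNA1 and 183.6 and 153.9 with shRNA2, and the difference of shRNA2 from shRNA1 was 0.35 ± 0.074 on the log2 scale (adjusted p = 0.0238). Psmb10 stood at 90.9 and 93.4 with control, 95.8 and 91.0 with shRNA1 and 120.5 and 108.8 with shRNA2 (0.29 ± 0.054, adjusted p = 0.000761). In both, the shRNA2 libraries lay above all others and shRNA2 library 1 was the highest. Psmb8 stood at 280.7 and 278.5 with control, 297.2 and 276.2 with shRNA1 and 387.0 and 323.1 with shRNA2, with the same order but no call (0.31 ± 0.102, adjusted p = 0.257).

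The interferon-inducible activator subunits Psme1 and Psme2 showed the same order. Psme1 stood at 209.6 and 214.5 CPM with control, 203.5 and 207.3 with shRNA1 and 263.2 and 237.6 with shRNA2 (0.29 ± 0.043, adjusted p = 7.7e-05), and Psme2 at 183.7 and 181.2, 182.4 and 182.3, and 224.8 and 199.4 (0.22 ± 0.046, adjusted p = 0.0042). Psme3, the nuclear activator subunit that interferon does not induce, had another pattern, with 327.8 and 309.3 with control, 273.6 and 265.3 with shRNA1 and 313.0 and 308.9 with shRNA2 (0.21 ± 0.037, adjusted p = 0.000624). Its shRNA1 libraries were the low ones.

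The interferon response list summed to 1206 CPM in cultured shRNA2 library 1, 395.7 in shRNA2 library 2 and 293.1 to 331.9 in the 4 other cultured libraries, and its part in the differences was not tested. Without shRNA2 library 1, the differences from shRNA1 were 0.23 for Psmb9 (adjusted p = 0.0137), 0.22 for Psmb10 (0.0316), 0.21 for Psme1 (0.00447) and 0.20 for Psme3 (0.00647), with the call for Psme2 lost (0.13, 0.17) and that for Psmb8 gained (0.18, 0.0249). In this setting the lone shRNA2 library is assumed to vary like the others. After transplantation none of these genes was called between shRNAs by edgeR, which called 2 genes in all (0.00983%), with Psmb8 at 422.0 and 427.9 CPM with control, 452.1 and 420.3 with shRNA1 and 438.6 and 434.0 with shRNA2.

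**Figure D3:**
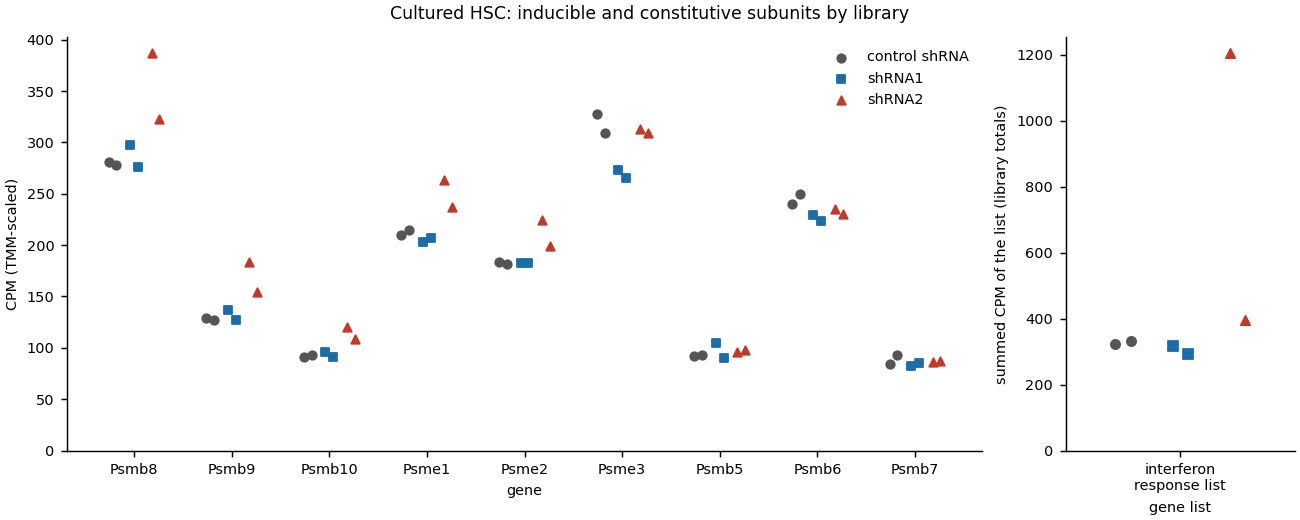
CPM (vertical axis) of 9 proteasome genes in each cultured old HSC library with control shRNA (circles), shRNA1 (squares) or shRNA2 (triangles), and, on the right, the summed CPM of the interferon response list. The triangles lie above the other symbols for Psmb8, Psmb9, Psmb10, Psme1 and Psme2 and not for Psmb5, Psmb6 and Psmb7, and 1 triangle stands at 1206 CPM on the right.

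Cultured and transplanted old HSCs with the control shRNA were then compared. The transplanted cells had passed more than 4 months in a host and were sorted on other markers, so culture, host, time and sort cannot be told apart. The paper describes RNA extraction for transplanted HSCs but not for cultured ones, so a difference in preparation cannot be told apart either. Most constitutive genes were higher in culture: 35 of 44 members were higher and 2 lower by edgeR's test, beside 24% and 24.3% of genes, and the members' median log2 fold change was 0.33, beside -0.01 over all genes. A fold of 1.5 was passed by 1 member upward and 0 downward, beside 12.6% and 15.2% of genes, and libraries did not overlap in 38 members upward and 4 downward, beside 37.2% and 38.7% of genes. With library totals, which shifted the median of all genes to -0.16, 24 members were higher and 5 lower, beside 17.5% and 32.7% of genes. A proliferation list of 9 genes summed to 2627 and 2633 CPM in cultured and 1041 and 1213 in transplanted controls, and its part was not tested.

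All 8 lid subunits, all 6 base ATPases, the 3 other base subunits, the 4 structural beta subunits and the 3 catalytic beta subunits were higher with TMM, as were 6 of 7 alpha subunits and 3 of 7 assembly chaperones. With library totals the 8 lid subunits and 3 chaperones were still called higher, but 11 other genes lost the call: all 4 structural beta subunits, the catalytic Psmb5 and Psmb6, the alpha subunits Psma3, Psma4 and Psma7, and Psmc3 and Psmd4 of the base. Psme4 stood apart, with 128.6 and 135.1 CPM in culture and 52.4 and 64.3 after transplantation, a log2 fold change of 1.18 ± 0.093 (adjusted p = 1.82e-05). Psmc6, a base ATPase, stood at 132.7 and 140.3 against 97.0 and 90.4 (0.54, adjusted p = 0.000142), and Psmd14, the deubiquitinase of the lid, at 184.2 and 184.0 against 131.2 and 126.2 (0.52, adjusted p = 5.68e-05). Cultured libraries lay above transplanted ones in each. Psmd1, the largest scaffold of the base, followed with 323.3 and 321.8 against 228.1 and 225.6 (0.51), and Psma2, an alpha subunit, with 273.6 and 277.1 against 195.2 and 197.3 (0.49).

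Of the catalytic subunits Psmb7 stood at 87.9 and 96.7 CPM in culture and 70.2 and 72.3 after transplantation (0.37, adjusted p = 0.00223), Psmb5 at 96.4 and 97.2 against 80.4 and 78.9 (0.28, adjusted p = 0.00427) and Psmb6 at 250.5 and 260.5 against 234.7 and 225.9 (0.15, adjusted p = 0.0318). With library totals the values were 0.23 for Psmb7, still called, 0.14 for Psmb5 (adjusted p = 0.0882) and 0.0040 for Psmb6 (adjusted p = 0.954). The call for Psmb6 was also lost without either cultured library (adjusted p 0.102 and 0.235). The members that were lower belonged to the activators and inhibitors: Psme1 stood at 219.1 and 223.3 against 292.7 and 282.5 (-0.38, adjusted p = 0.000215), and Psmf1, an inhibitor of the core, at 64.3 and 61.7 against 79.8 and 77.0 (-0.32, adjusted p = 0.00423, or 0.0703 without cultured library 2). Psme2, the partner of Psme1, was the least changed member at -0.02 (95% interval -0.14 to 0.10), and was called lower with library totals (-0.17, adjusted p = 0.0237). Outside the activators and inhibitors, Psma8 and the chaperone Psmg4 were also called lower with library totals, though not with TMM.

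The immunoproteasome genes went the other way and were all 3 lower in culture. Psmb10 stood at 95.04 and 97.2 CPM in culture and 169.9 and 158.6 after transplantation (-0.77 ± 0.058, adjusted p = 1.18e-05), Psmb9 at 134.9 and 132.7 against 193.5 and 192.4 (-0.53 ± 0.049, adjusted p = 3.9e-05) and Psmb8 at 293.4 and 290.0 against 400.6 and 405.1 (-0.47 ± 0.043, adjusted p = 3.78e-05). No cultured library reached a transplanted one. Of the companions, 6 of 10 MHC class I processing genes were lower in culture and 2 higher, beside 24.3% and 24% of all genes, the lower ones led by B2m (-0.93) and H2-K1 (-0.81), the light and a heavy chain of the class I complex, and 9 of 14 proteasome-bound deubiquitinases, ligases and shuttles were higher and 2 lower, the higher ones led by Nploc4 (0.86) and Rad23b (0.67), adaptors that carry ubiquitinated proteins. The interferon response list summed to 324.2 and 331.9 CPM in culture and 778.5 and 815.7 after transplantation, which was not tested as a part of these differences.

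Among young progenitors most constitutive genes were higher in MEP than in CMP or GMP, and with TMM most were higher in GMP than in CMP, a step that few kept with library totals. GMP exceeded CMP in 35 of 44 members and fell below it in 0, by edgeR's test at an adjusted p below 0.05, beside 18.8% and 16% of genes, with a median log2 fold change of 0.28 beside 0.01. At an unadjusted p below 0.05 the counts were 36 and 0, beside 22.8% and 20.4% of genes, and DESeq2 gave 35 and 0, beside 17.3% and 14.4%. With library totals, which shifted the median of all genes to -0.21, 7 members were higher and 2 (Psmd5 at -0.17 and Psme1 at -0.25) lower, beside 8.2% and 30% of genes, and 31 members had a positive log2 fold change in place of 42 with TMM. The members' median exceeded that of all genes by 0.27 with either scaling. No member passed a fold of 1.5, beside 6.24% of genes upward and 10.5% downward, and the libraries did not overlap in 38 members upward and 1 downward, beside 35.1% and 32.3% of genes.

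Psmb5, the catalytic subunit of chymotrypsin-like activity, stood at 105.0 and 102.4 CPM in CMP and 139.5 and 145.4 in GMP (0.46, adjusted p = 2.88e-05, and 0.24 with library totals), and Psmc5, a base ATPase, at 162.8 and 151.0 against 216.4 and 210.0 (0.44, adjusted p = 2.96e-05, and 0.22 with library totals). GMP libraries were above CMP libraries in both. Psmd13 (0.38), Psma6 (0.38) and Psmc1 (0.37) followed, and Psmb6 (0.24) and Psmb7 (0.27) were called as well, though not with library totals. Psme1 (-0.03), Psmd5 (0.05) and Psmf1 (0.07) changed least. Psmb8 stood at 486.7 and 480.5 CPM in CMP and 501.3 and 463.9 in GMP (0.00, 95% interval -0.11 to 0.10), and at -0.22 with library totals (adjusted p = 0.00326). Psmb9 stood at 150.9 and 151.9 against 146.0 and 133.9 (-0.11, adjusted p = 0.223, and -0.33 with library totals, adjusted p = 0.00175). Psmb10 at 115.8 and 118.6 against 134.8 and 134.2 was called (0.20, adjusted p = 0.0149), lost the call without any 1 of the CMP and GMP libraries (adjusted p from 0.0559 to 0.0995) and stood at -0.020 with library totals.

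MEP, the progenitors of erythrocytes and platelets, held the highest constitutive levels. Against CMP 40 of 44 members were higher and 2 lower, beside 28.9% and 35.6% of genes, and 28 passed a fold of 1.5 upward and 0 downward, beside 17.5% and 29.2% of genes. All MEP libraries lay above CMP in 40 members and below in 2, beside 39% and 44.1% of genes. The median log2 fold change was 0.69, beside -0.07 over all genes, and with library totals, which shifted the latter to -0.18, 39 were higher and 2 lower, beside 24.5% and 39.1% of genes. At an unadjusted p below 0.05 the counts were 40 and 2, beside 30.4% and 37% of genes. Against GMP 34 were higher and 2 lower, beside 27.7% and 33.7% of genes, with a median of 0.36 beside -0.03, and 11 passed a fold of 1.5 upward and 1 downward, beside 16.6% and 27.2% of genes. With library totals 38 were higher than in GMP and 2 lower, beside 32% and 30.6% of genes. The proliferation list summed to 4060 and 4133 CPM in MEP, 3088 and 3095 in CMP and 3059 and 3151 in GMP, and an erythroid list reached 6328 to 6744 CPM in MEP, and the part of either was not tested.

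Psmf1, the inhibitor, showed the largest rise, from 52.8 and 50.0 CPM in CMP and 50.6 and 57.1 in GMP to 162.5 and 169.6 in MEP. MEP lay far above the other types, whose libraries overlapped, and the log2 fold change was 1.69 ± 0.070 against CMP (adjusted p = 1.64e-10) and 1.63 ± 0.071 against GMP (adjusted p = 2.32e-10). Psmd9, a base assembly chaperone, behaved alike with 40.5 and 42.6 in CMP, 41.2 and 47.0 in GMP and 122.9 and 119.5 in MEP (1.54 against CMP, 1.46 against GMP). Psmc2, a base ATPase, rose in both steps, from 162.6 and 162.4 to 206.6 and 193.5 and to 373.2 and 367.1 (1.19 against CMP, 0.89 against GMP), though its step from CMP to GMP was not called with library totals. Psmg2, the partner of Psmg1, stood at 70.4 and 70.0, 83.7 and 74.96, and 142.3 and 142.2 (1.02 and 0.84), Psmd3, a lid scaffold, at 190.7 and 175.2, 225.7 and 228.1, and 372.0 and 367.3 (1.01 against CMP), and Psmd5, another base chaperone, at 167.1 and 177.5, 173.1 and 182.8, and 354.2 and 341.7 (0.97 against GMP). In all of these no MEP library overlapped another type.

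All 3 constitutive catalytic subunits were higher in MEP than in CMP. Psmb7 stood at 103.7 and 96.4 CPM in CMP, 122.1 and 118.9 in GMP and 174.2 and 174.5 in MEP (0.80 against CMP), Psmb6 at 264.7 and 259.9, 309.3 and 308.6, and 357.9 and 362.7 (0.46) and Psmb5 at 147.7 and 152.5 in MEP (0.53 against CMP, and 0.08 with an adjusted p of 0.253 against GMP). With library totals Psmb5 was called higher in MEP than in GMP as well. The 2 members that were lower in MEP were the interferon-inducible activator subunits. Psme1 stood at 218.5 and 225.8 in CMP, 222.5 and 212.7 in GMP and 157.9 and 172.1 in MEP (-0.43 and -0.40), and Psme2 at 217.0 and 204.2, 253.8 and 241.2, and 163.2 and 163.2 (-0.37 and -0.60). MEP was below both other types in each, while Psme3, of the related nuclear activator, was higher in MEP (0.87 and 0.61). Psmg4, a chaperone of the alpha ring, was the least changed member against CMP at -0.01 (95% interval -0.21 to 0.19).

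**Figure D4:**
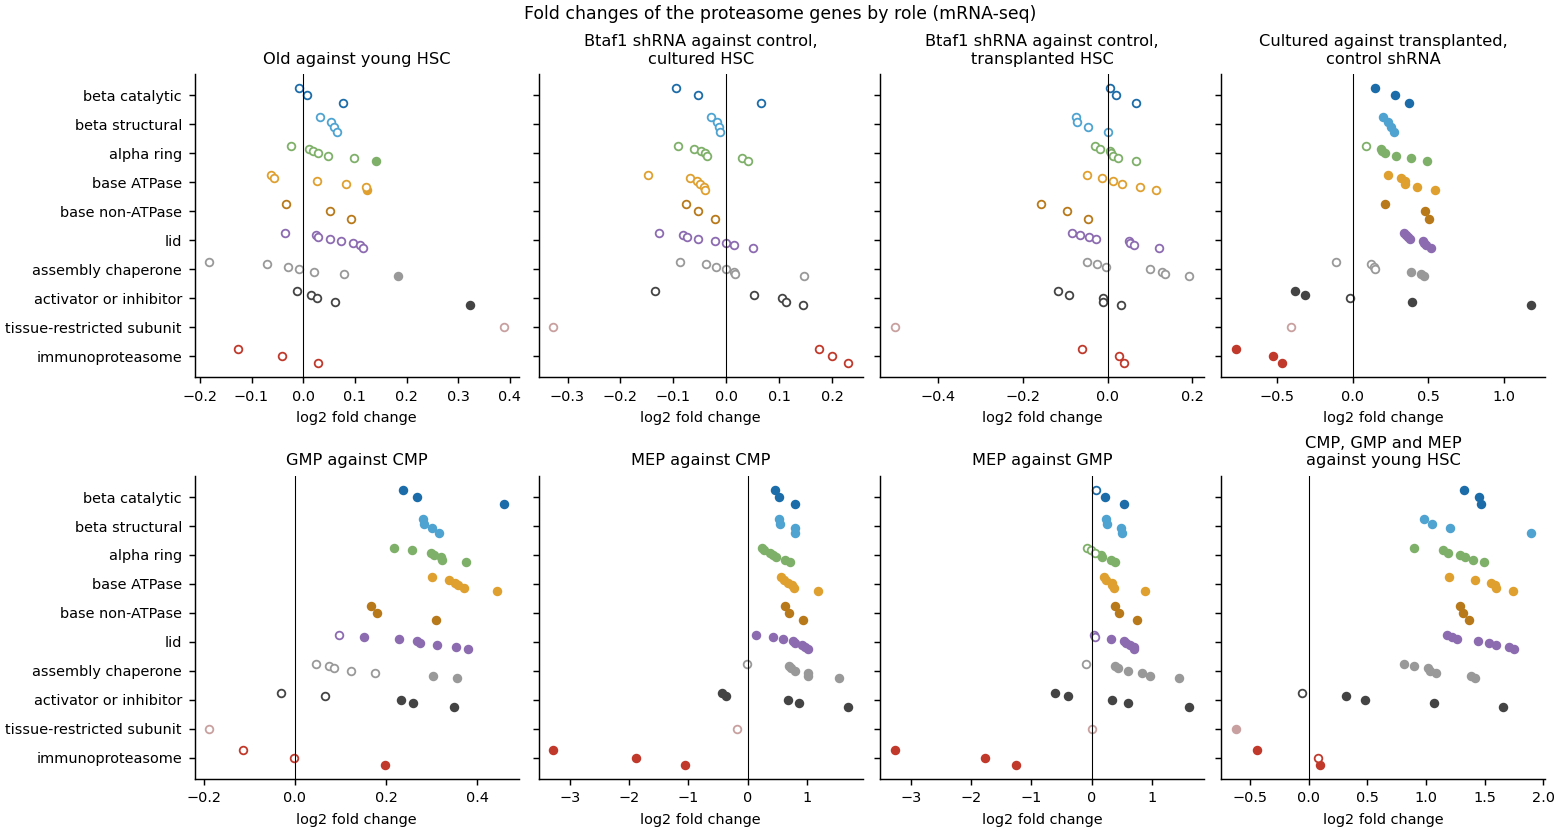
Log2 fold changes (horizontal axis, scaled separately in each panel) of the proteasome genes in 8 comparisons, grouped by role on the vertical axis. Filled points have an adjusted p below 0.05 and open points do not, from edgeR. Most groups of core, base and lid subunits lie to the right of 0 in the culture and progenitor panels and around 0 with age and knockdown, the activators and inhibitor lie on both sides, Psma8 lies to the left in culture and in 3 of the 4 progenitor panels, and the immunoproteasome lies to the left in MEP and in culture. Scaling by library totals moves the points of the GMP panel to the left by about 0.2, and those of the culture and progenitors against HSC panels to the left as well.

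The immunoproteasome genes were all 3 lower in MEP than in CMP and GMP. Psmb8 stood at 486.7 and 480.5 CPM in CMP, 501.3 and 463.9 in GMP and 48.5 and 51.3 in MEP, a log2 fold change of -3.28 ± 0.053 against CMP (adjusted p = 2.24e-14) and -3.27 ± 0.053 against GMP (adjusted p = 1.75e-14). Psmb9 stood at 38.5 and 43.5 in MEP (-1.89 ± 0.070 against CMP and -1.77 ± 0.071 against GMP) and Psmb10 at 57.0 and 55.7 (-1.06 ± 0.058 and -1.26 ± 0.058). Every MEP library lay below all CMP and GMP libraries. All 10 companions of MHC class I processing were lower in MEP as well, against both CMP and GMP, beside 35.6% and 33.7% of all genes, with Tap2, a peptide transporter subunit, at -1.35 and H2-K1 at -1.27 against CMP. The interferon response list summed to 60.6 and 70.0 CPM in MEP, 101.9 and 117.6 in GMP and 180.9 and 192.4 in CMP, and its part was not tested.

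Ratios within a library do not depend on scaling between libraries. Per kilobase Psmb8 was at 0.0884 ± 0.00155 of Psmb5 in MEP, 0.902 ± 0.0758 in GMP and 1.24 ± 0.011 in CMP (SD, n = 2 each). Psmb9 was at 0.0581 ± 0.00448 of Psmb6 in MEP and 0.232 ± 0.0139 in GMP and 0.295 ± 0.00514 in CMP, and Psmb10 at 0.648 ± 0.0115 of Psmb7 in MEP, 2.24 ± 0.036 in GMP and 2.35 ± 0.162 in CMP. Transplanted control HSCs had the highest ratios of Psmb8 to Psmb5 (1.34 ± 0.0275) and of Psmb10 to Psmb7 (4.63 ± 0.323), while cultured control HSCs stood at 0.801 ± 0.0108 and 2.09 ± 0.106. For Psmb9 to Psmb6 young HSCs stood highest, at 0.540, and transplanted and cultured controls at 0.429 ± 0.00978 and 0.268 ± 0.0105. The labels name another kit for the shRNA libraries than for the rest, so kit and group cannot be told apart between them. With 2 libraries a group no permutation test of these ratios can reach the threshold, and they are given as values.

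**Figure D5:**
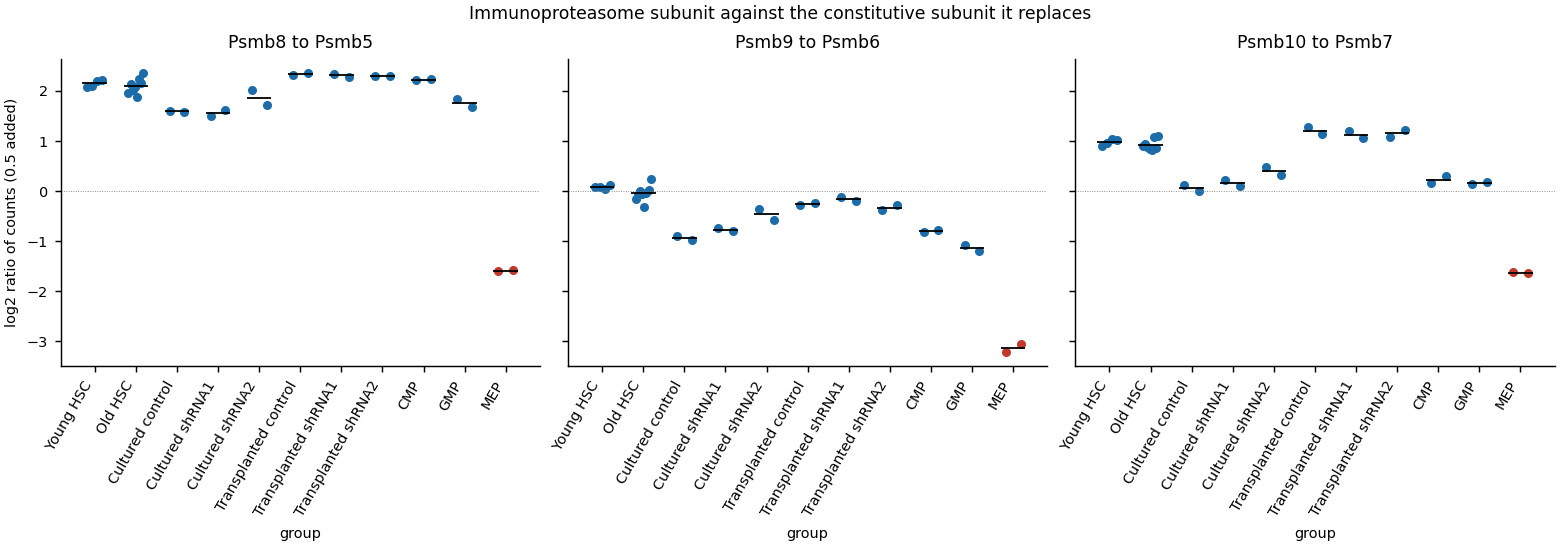
Log2 ratio of counts (0.5 added, vertical axis) of each immunoproteasome gene to the constitutive subunit it replaces, with 1 point per library, a bar at the mean and the groups along the horizontal axis. Both MEP libraries (red) lie below every other library in all 3 panels, and the cultured controls lie below the transplanted controls.

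Progenitors were last compared with young HSCs, as the mean of CMP, GMP and MEP against the 4 HSC libraries, a comparison in which cell type and library batch cannot be told apart. Here 42 of 44 members were higher and 1 lower by edgeR's test, beside 29.7% and 58% of genes, and 40 passed a fold of 1.5 upward and 1 downward, beside 21.9% and 52.1% of genes. The libraries did not overlap in 40 members upward and 1 downward, beside 22.4% and 42.8% of genes. The members' median log2 fold change was 1.30, beside -0.85 over all genes, and with library totals it was 0.84 beside -1.31, with 40 higher and 3 lower, beside 20.7% and 68.5% of genes. The members' median exceeded that of all genes by 2.16 with TMM and 2.15 with library totals.

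Psmb3, a structural beta subunit, was at 82.2 to 88.3 CPM (median 84.99) in HSCs and 243.2 to 437.0 (median 300.5) in the 6 progenitor libraries (1.89 ± 0.033, adjusted p = 3.13e-22). Psmd14, the lid deubiquitinase, was at 75.6 to 83.7 (median 81.8) in HSCs and 217.5 to 348.8 (median 264.7) in progenitors (1.75 ± 0.038, adjusted p = 9.71e-21), and Psme3 at 157.1 to 172.4 (median 168.1) and 403.0 to 753.2 (median 478.9) (1.66 ± 0.032, adjusted p = 1.5e-21). No progenitor library overlapped an HSC library in any of them. Psmc4 (1.74) and Psmd13 (1.71) were between these. Psmb7 (1.47), Psmb5 (1.45) and Psmb6 (1.33) rose together.

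The smallest differences were those of Psme1, Psmf1 and Psme4. Psme1 was at 228.2 to 249.0 CPM in HSCs and 181.8 to 258.4 in progenitors (-0.06, adjusted p = 0.139), Psmf1 at 68.0 to 72.4 and 57.2 to 193.2 (0.32) and Psme4 at 58.1 to 64.7 and 63.7 to 112.3 (0.48), and the groups overlapped in each. With library totals Psme1 was called lower (-0.52, adjusted p = 9.45e-12), Psmf1 turned to -0.14 (adjusted p = 0.00406) and Psme4 lost the call (0.020, adjusted p = 0.689). For Psmf1 the CMP and GMP libraries (57.2 to 63.6) lay below HSCs and the MEP libraries (187.1 and 193.2) above them. Psma8 was the member that fell, from 20.2, 18.1, 21.1 and 17.7 CPM in HSCs to 10.99 to 14.8 (median 12.3) in progenitors (-0.62 ± 0.092, adjusted p = 1.89e-06), without overlap. The immunoproteasome genes split by type: Psmb8 was at 229.2 to 251.6 CPM in HSCs, 555.0 and 549.7 in CMP, 567.5 and 517.2 in GMP and 55.8 and 58.5 in MEP, and thus above HSCs in CMP and GMP and below them in MEP. Its mean difference of 0.09 (adjusted p = 0.0179) turned to -0.37 with library totals. Psmb10 followed with 101.0 to 107.0 in HSCs, 132.1 to 152.6 in CMP and GMP and 65.6 and 63.4 in MEP (0.08, adjusted p = 0.0646, and -0.39 with library totals). Psmb9 stood at 143.0 to 152.9 in HSCs, 149.2 to 173.8 in CMP and GMP and 44.3 and 49.5 in MEP (-0.44, adjusted p = 1.96e-09). With library totals, in CPM per kb, the excess of CMP and GMP remained for Psmb8 (86.4 in HSCs, 154 in CMP and 132 in GMP) but not for Psmb10 (73.5, 74.2 and 73.2), and Psmb9 was lower in both (48.7, 44.7 and 35.5). Of the 39 companions 27 were higher and 11 lower in progenitors, beside 29.7% and 58% of all genes, and with library totals 17 were higher and 16 lower. Of the 10 MHC class I processing genes 7 were lower, a share near that of all genes.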

How the data were processed

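HSCs of 2 ages, infected old HSCs and young progenitors were profiled by RNA-seq, ATAC-seq and ChIP-seq. For RNA-seq the deposited values are raw counts per GENCODE M22 gene, made by the authors from trimmed reads with STAR (mm10) and featureCounts. The labels name a total RNA kit for the young, old and progenitor libraries and a SMART-seq kit for the shRNA libraries, while the study's methods name SMART-Seq kits for HSCs, so whether CPM values cover total or polyadenylated RNA is unsure. For ATAC-seq the deposited values are raw counts per consensus region after BWA alignment to mm10 and removal of duplicates. For H3K27ac, H3K4me3 and H3K27me3 the authors deposited a signal per peak from libraries scaled to a common depth. The sources used here do not state how strand and shared reads were handled. The authors' own fold change columns, the ratio of old to young signal and its log2, were not used, and neither were 8 columns of per-sample values that no listed sample could be tied to.

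Counts were compared with edgeR 4.0.16 in R 4.3.3 (TMM, filterByExpr, robust quasi-likelihood test, Benjamini-Hochberg over all genes or regions), and a call is an adjusted p below 0.05 with no limit on the fold. ATAC regions needed over 1.5 CPM in at least 4 libraries. H3K27ac was compared with limma 3.58.1 on log2(signal + 0.1). A promoter ran from 1000 bases before to 100 after a RefSeq start, with the strongest region kept. CPM in comparisons are TMM-scaled within that comparison, so a gene's CPM differs slightly between comparisons. Ratios of counts, with 0.5 added, were compared with an exact permutation test. The edgeR and limma tests and the permutation code were tried on simulated data, for accessibility with another filter on low counts. Alternatives were DESeq2 1.42.0 and its size factors, library totals, no filter, a fold above 1.2, a replicate block and leaving out each library. Named in full were the catalytic and immunoproteasome genes and, per comparison, up to 5 called members with the largest rise and up to 5 with the largest fall, and up to 3 of the least changed. The tests between the 2 shRNAs and between culture and transplantation were added after seeing the data. Members and lists were chosen with earlier results of these data known. Where nothing says that libraries came from separate cultures, p-values measure only the spread between libraries, which may be technical. The RNA-seq libraries held 20475764 to 42737054 counted reads and the ATAC-seq libraries 15427933 to 26260337, and the ChIP-seq values carry no depth. The values of 1 companion gene are not reported here. Figures were drawn with matplotlib 3.10.9.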

Additional observations from a re-analysis of the deposited data

Results flagged for a closer look

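Of 188 groups of 4 or 8 values (1 per gene, age and assay), 11 held a library far from the others by Dixon's test at its 95% limit, where chance flags about 1 in 20 groups. In mRNA of young HSCs, library 1 was highest for Psma1 (208.4 CPM) and Psmb7 (64.65) and library 2 lowest for Psmb4 (104.4). In old HSCs, library 3 was highest for Psmb7 (69.78), and library 8 was lowest for Psmd9 (34.51) and highest for Psme4 (102.0). In accessibility of old HSCs, library 7 was highest for Psma1 (25.08) and lowest for Psmb3 (25.68), and library 6 highest for Psmf1 (30.06). In young HSCs, library 3 was highest for Psme1 (25.57) and library 4 for Psme2 (67.14).

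In culture, shRNA2 differed from shRNA1 by edgeR's test of the difference in 5 proteasome genes, by log2 differences of 0.2949 for Psmb10, 0.2066 for Psme3, 0.2856 for Psme1, 0.2181 for Psme2 and 0.3539 for Psmb9. All 4 pairs of an shRNA2 with an shRNA1 library had this direction in each gene. The genes were picked by the test on the same libraries and no share of all genes is given, so this order adds no support. The summed interferon response list was highest in cultured shRNA2 library 1, and its part was not tested.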

How the results depend on the processing

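Leaving out single libraries gave ranges of 2 to 7 members higher and 0 to 1 lower with age, 27 to 36 and 1 to 3 in culture against transplantation, 32 to 35 and 0 for GMP against CMP, 39 to 40 and 2 for MEP against CMP, 33 to 34 and 2 for MEP against GMP, 42 and 1 to 2 for progenitors against HSCs, 1 higher and 18 to 23 lower in accessibility, and 0 to 2 higher and 0 to 1 lower in H3K27ac. Knockdown stayed at 0. Counts moved by over 1.5 times without young library 1 or 2 (2 higher with age), old library 4 (7 higher) or 2 (1 lower), cultured control 2 (1 lower), GMP 2 (2 lower in progenitors), and young H3K27ac library 1 (2 higher) or 2 (1 higher, 1 lower). Old minus young log2 ratios ran from -0.083 to -0.016 (Psmb8 to Psmb5), -0.166 to -0.087 (Psmb9 to Psmb6, adjusted exact permutation p = 0.0455 at the first) and -0.075 to -0.031 (Psmb10 to Psmb7). With library totals the counts were 2 higher and 3 lower with age, 5 lower in culture against transplantation, 7 higher and 2 lower for GMP against CMP and 3 lower for progenitors against HSCs, and Psmb10 turned to -0.020 and Psmd5 to -0.17 (GMP against CMP), and Psmb8 to -0.37, Psmb10 to -0.39 and Psmf1 to -0.14 (progenitors against HSCs); the cause was not tested. A fold above 1.2 left 1 member higher with age, beside 1811 of all 21522 genes. In cultured knockdown, members lower were 2 without the filter, 1 with DESeq2, 5 at an unadjusted p (1 higher), 1 with shRNA1 (1 higher) and 4 with shRNA2 (2 higher), and after transplantation 1 at an unadjusted p. Members lower in progenitors were 2 with DESeq2 size factors, without the filter and with DESeq2. The study's limits left 0 promoters lower. Chosen after seeing the data, leaving out young library 4 and old library 7, which held the most B cell marker reads, gave 5 higher and 0 lower. Of all 21994 genes 2169 were higher and 1396 lower in that setting. Spike-in scaling gave 3 and 0, beside 2293 and 1393 of all 21522 genes.

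Same-numbered libraries did not deviate together (correlations from -0.226 to 0.058), so the numbers gave no sign of pairing. The check cannot exclude a shared culture, sort or donor, least of all with 2 libraries a group, whose deviations mirror each other. With a replicate block the counts were 4 higher and 0 lower with age (2016 and 1528 of all 21522 genes). They were 0 and 0 in cultured knockdown (235 and 210 of 19763) and 0 and 0 after transplantation (0 and 0 of 20350). Culture against transplantation gave 34 and 3 (4548 and 4552 of 19518), and GMP against CMP 36 and 0 (3511 and 2977 of 18234). MEP gave 40 and 2 against CMP (5276 and 6466) and 34 and 2 against GMP (5082 and 6103). Progenitors gave 42 and 1 (7053 and 13715 of 25716). H3K27ac gave 0 and 0, and ratio differences were -0.10, -0.15 and -0.09. For accessibility no paired analysis was possible because young and old libraries have different replicate numbers. Depth limited Psmb11, with 13 reads over the young libraries.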

Other observations

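In young HSCs an H3K27me3 peak, a mark of repressed promoters, lay at the start of 4 of the 48 genes, beside 34.6% of 26180 genes with a curated RefSeq start, and the signal was low for Psma8 (0.378 and 0.339, percentile 10.0 of 9056 promoters with a peak) and Psmb11 (0.474 and 0.516, percentile 28.7) and higher for Psmb2 (1.09 and 1.10, percentile 81.5) and Psmc4 (1.07 and 1.10, percentile 81.2). Psmd10, an assembly chaperone, had the lowest H3K4me3 signal after Psma8, at percentile 23.7.

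Transplanted HSCs varied most for Psma8, with 33.7 and 51.7 CPM with control, 28.5 and 31.4 with shRNA1 and 7.01 and 53.7 with shRNA2, so that both the lowest and the highest library carried shRNA2. In culture Psma8 stood at 27.9 and 30.7 with control, 25.8 and 24.7 with shRNA1 and 22.4 and 20.4 with shRNA2, and shRNA2 against control was called (-0.45, adjusted p = 0.00132 by edgeR).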
